A study of Mus musculus with 36 samples.

Results

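Cytosolic ribosomal protein genes were followed in the left ventricle of mice in which 1 of 3 signalling proteins had been switched on in heart muscle. A gene was taken where the array annotation gave a probe set 1 symbol made of Rpl or Rps and a number, with an optional A, X or L ending, or Rplp0, Rplp1, Rplp2 or Rpsa. Pseudogenes, including 1 symbol that RefSeq lists as one, and the Rps6k kinases were left out. This gave 45 of the 18194 genes named by 1 symbol, with 99 probe sets, and the brightest probe set by its mean over 36 arrays stood for each gene. Of these, 43 lay above the filter on dim probe sets and were tested among 12626 genes, 23 of the large (60S) and 20 of the small (40S) ribosomal subunit. The remaining ones were Rpl39l, a variant form of Rpl39 (mean signal 347), and Rps16 (mean signal 19.6), the dimmest member. Rpl3 was not analysed here, because its probe sets carry more than 1 symbol.

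Ribosomes are built in the nucleolus from ribosomal RNA and ribosomal proteins, most of which are needed in equal numbers. Many of their mRNAs begin with a short pyrimidine stretch, the TOP motif, through which growth signals such as mTOR control their translation more than their amount. In striated muscle one protein of the large subunit, Rpl3, is replaced in part by its muscle-specific paralog Rpl3l.

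The hearts came from mice on a C57black background, treated at 12 weeks of age with tamoxifen at 20 mg/kg on 3 consecutive days. Double transgenic mice carried αMHC-Mer-Cre-Mer, a tamoxifen-activated Cre under the alpha myosin heavy chain promoter of heart muscle cells, together with 1 floxed transgene under the same promoter: HRas-v12, MKK3bE or MKK7D. HRas-v12 is an active Ras protein, MKK3bE an active kinase upstream of p38, and MKK7D an active kinase upstream of JNK. Controls were littermates without transgenes that received the same tamoxifen, so the driver alone had no control of its own. Early hearts were taken 4 to 7 days and late hearts 2 to 4 weeks after the first injection. There were 5 early HRas-v12 arrays (2 female, 3 male), 6 late ones (3 and 3), 2 early MKK3bE arrays (female), 5 late ones (2 female, 3 male), and 3 female MKK7D arrays at each time. The 3 male and 3 female control arrays carry no time in the labels and served HRas-v12 and MKK3bE at both times, so these comparisons share them. MKK7D had 3 female control arrays of its own at each time. The labels do not say that replicates are separate animals, so p-values measure the spread between these arrays only.

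Some arrays went against their labels. Mer is a mutated part of the estrogen receptor, so RNA of the driver can add to the signal of Esr1. In the 6 shared controls the brightest probe set of Esr1 read 294 to 832, apart from control female 2 at 7943. It read 12437 or more on 21 of the 24 transgenic arrays, with the early HRas-v12 males lowest among them at 12437 to 21172.5. It was low on HRas-v12 female early replicate 3 and on HRas-v12 male late replicates 1 and 3, and high on the libraries labelled MKK7D control late replicates 8 and 9. The library labelled MKK7D control female early replicate 1 had the Xist and Eif2s3y signals of a male. Results are therefore given with and without these 6 arrays, chosen after their values were seen. Leaving them out left 1 array each of early HRas-v12 females, late HRas-v12 males and late MKK7D controls, and each such array was assumed to vary like the other groups. Correlations between arrays ran from 0.889 to 0.963, and the share of signal in the top 100 probe sets from 6.04% to 9.54%. The 7 cardiac muscle markers, Myh6 and Tnnt2 among them, summed to 685593 or more on every one of the 36 arrays.

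To show the start of the mRNAs, 30 bases around the annotated start of transcription were read from RefSeq (build GRCm38.p6), 15 on each side, in the direction of transcription. Capitals mark the bases from the annotated start on. Rpl3l, Rps25, Rpl27a and Rpl37 are shown because they had the largest called changes in early HRas-v12 hearts, and the others as examples of a TOP-like start, here a C at the annotated base followed by at least 4 pyrimidines. The lines stand for Rpl3l (chr17:24727811-24727840, + strand), Rps25 (chr9:44407699-44407728, +), Rpl27a (chr7:109519180-109519209, +), Rpl37 (chr15:5116598-5116627, +), Rpl35 (chr2:39005117-39005146, -), Rps18 (chr17:33955651-33955680, -), Rpl38 (chr11:114668565-114668594, +) and Rps6 (chr4:86857353-86857382, -).
Rpl3l: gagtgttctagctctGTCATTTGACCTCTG
Rps25: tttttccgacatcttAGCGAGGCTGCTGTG
Rpl27a: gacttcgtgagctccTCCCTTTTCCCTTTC
Rpl37: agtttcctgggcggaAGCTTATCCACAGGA
Rpl35: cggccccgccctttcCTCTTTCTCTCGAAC
Rps18: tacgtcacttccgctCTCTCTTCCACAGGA
Rpl38: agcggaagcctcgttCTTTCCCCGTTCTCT
Rps6: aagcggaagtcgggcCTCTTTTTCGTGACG
Only the strand read in the direction of transcription was searched. A TOP-like start stood at the annotated base in 8 of the 40 members with a start in the table (20.0%) and in 813 of 27025 genes (3.01%). With a tolerance of 5 bases it stood in 19 of the 40 members (47.5%) and 21.16% of genes. Of the 4 genes with the largest changes, Rpl27a held one within 5 bases, and the starts of Rpl3l, Rps25 and Rpl37 did not, which says only that these letters are not in these windows.

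Most members were among the brightest genes of the heart arrays. The 36 bright probe sets had mean signals of 12080 to 116328 and lay at or above the 85.0th percentile of genes tested. Rps29, a small zinc-binding protein of the 40S subunit, was the brightest at 116328. The 7 dim probe sets, of Rpl12, Rpl14, Rpl27a, Rpl39, Rps25, Rps27 and Rps6, had means of 504 to 3979. A probe set's brightness is not a level per mRNA, so the order of the genes was not read. Together the members held 1.17% to 1.63% of the summed signal of an array.

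Across the 6 comparisons with control the members other than Rpl3l moved little. Of 252 values (42 genes in 6 comparisons), none exceeded 1 on the log2 scale, and the bright members stayed between -0.36 and 0.40. Values are log2(signal + 32), which understates changes of dim probe sets, and a gene was called at a limma adjusted p under 0.05 over all 12626 genes. In bulk tissue, fewer cells of a type and less RNA per cell cannot be told apart.

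**Figure D1:**
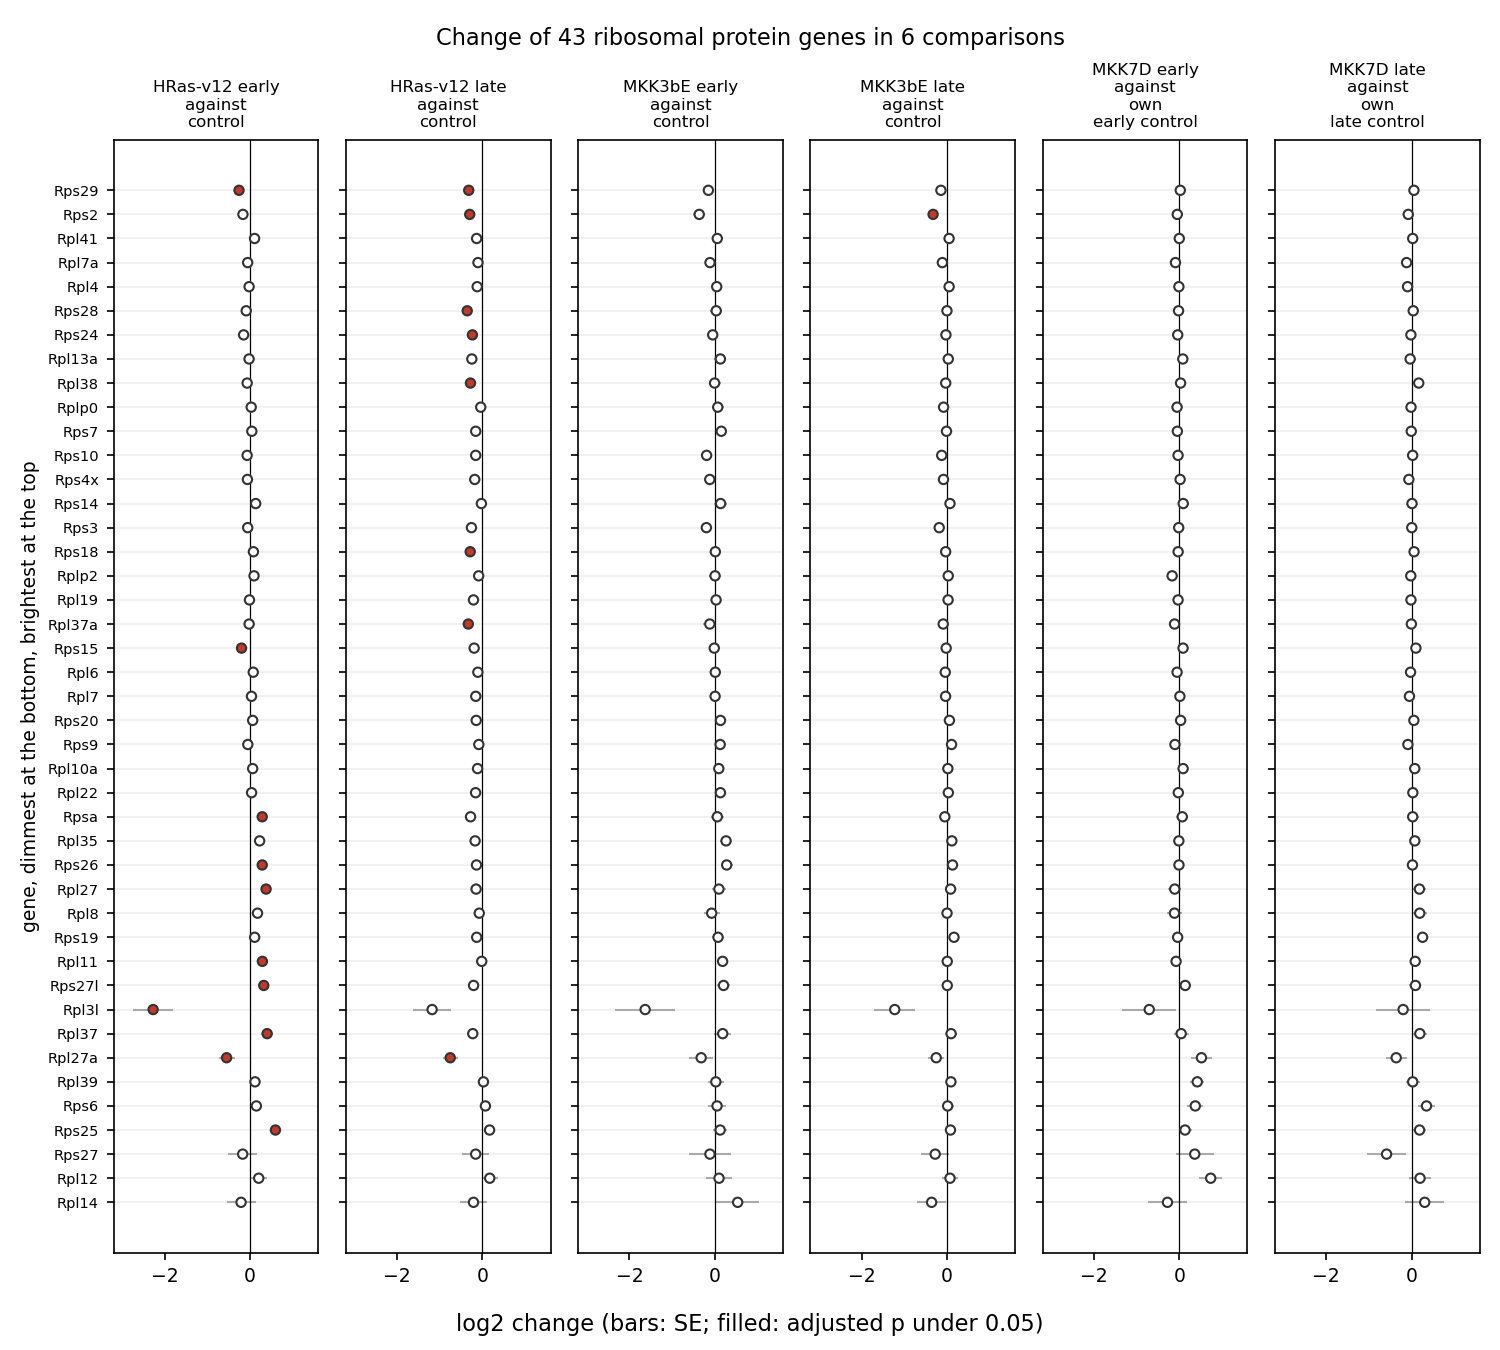
Log2 change (x axis) of 43 ribosomal protein genes (y axis, dimmest probe set at the bottom) in each transgenic group against its control, with the standard error as a bar and a filled point where the limma adjusted p was under 0.05. Rpl3l lay at -2.27 in early HRas-v12 hearts, while no other member passed 1 in size in any panel.

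Rpl3l, the muscle form of the large-subunit protein Rpl3, fell 4.84-fold in early HRas-v12 hearts, the largest change of any member. Its signal was 47079, 41613 and 39933 in control males and 37450, 45443 and 51165 in control females. In early HRas-v12 males it read 1822, 3748 and 3530, and in early HRas-v12 females 15491 and 49576. All 3 males lay far below every control, and the female array at 49576 was the one without a high Esr1 signal. The log2 change was -2.27 ± 0.48 (SE, 5 against 6 arrays; limma adjusted p = 0.000813), and it was called in all 19 settings that were run. Without the arrays in doubt it was -2.69, with 1 early female array left.

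In late HRas-v12 hearts Rpl3l was scattered. Females read 32450, 16736 and 15993, and males 43295, 2485 and 53152. All 3 females lay below the shared controls, while male replicate 1 lay among them, male replicate 3 far below and male replicate 4 above the highest. The log2 change was -1.18 ± 0.45 (limma adjusted p = 0.0870). Without the arrays in doubt it was -0.40, with male replicate 4 as the only late male left. Against early hearts the late value was 1.09 higher (limma adjusted p = 0.136). It was 2.30 higher without the arrays in doubt, a value that rests on 1 late male array (53152) and 1 early female array (15491).

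MKK3bE hearts had less Rpl3l signal than every shared control array at both times. The 2 early females read 12597 and 16220. Late males read 18292, 23796 and 26597, and late females 13088 and 17913. The log2 changes were -1.63 ± 0.71 early (2 against 3 female controls) and -1.22 ± 0.48 late (5 against 6). Neither passed with the spread shared over all 36 arrays (limma adjusted p = 0.164 and 0.0976), which includes the scattered HRas-v12 groups. With only the groups compared in the fit both did (adjusted p = 0.00126 and 4.88e-05).

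In MKK7D hearts the values lay closer together. Early transgenic arrays read 31009, 24864 and 31616 and their controls 47312, 40662 and 54712, without overlap. The early change was -0.70 ± 0.64 (limma adjusted p = 0.734, or 0.0310 with only the groups compared). Late transgenic arrays read 19520, 26983 and 26816, and the arrays labelled late control 21093, 20775 and 48510. Of these controls, the pair with the lower Rpl3l signals had the high Esr1 signal. The late change was -0.20 ± 0.64 (adjusted p = 0.999) and was -1.004 without the arrays in doubt (adjusted p = 0.131), a value that rests on 1 control array, with the spread taken from the other groups.

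An exact two-sided permutation test of Rpl3l alone, within sex and chosen after the values were seen, gave p = 0.02 for early HRas-v12, 0.07 for late HRas-v12, 0.1 for early MKK3bE, 0.005 for late MKK3bE, 0.1 for early MKK7D and 0.8 for late MKK7D. Adjusted over the 6 tests these exact p-values were 0.06, 0.12, 0.12, 0.03, 0.12 and 0.8. The smallest p these designs allow is 0.1 for early MKK3bE and for MKK7D, and 0.005 for the others.

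Over the 36 arrays a low Esr1 signal mostly went with a high Rpl3l signal. Of the 13 arrays with Esr1 under 8000, 12 had Rpl3l above 37000. The exception was HRas-v12 male late replicate 3. Of the 23 arrays with Esr1 over 12000, 1 did, HRas-v12 male late replicate 4. Among these 23 the early HRas-v12 males had the lowest Esr1 signals (12437 to 21172.5) and the lowest Rpl3l signals (1822 to 3748). HRas-v12 male late replicate 4 had the highest of both, 155949 and 53152. The bounds of 8000, 12000 and 37000 were set after the values were seen. Whether the driver has a part in the fall of Rpl3l was not tested. The design holds no array group labelled with the driver alone, so driver and transgene cannot be told apart.

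**Figure D2:**
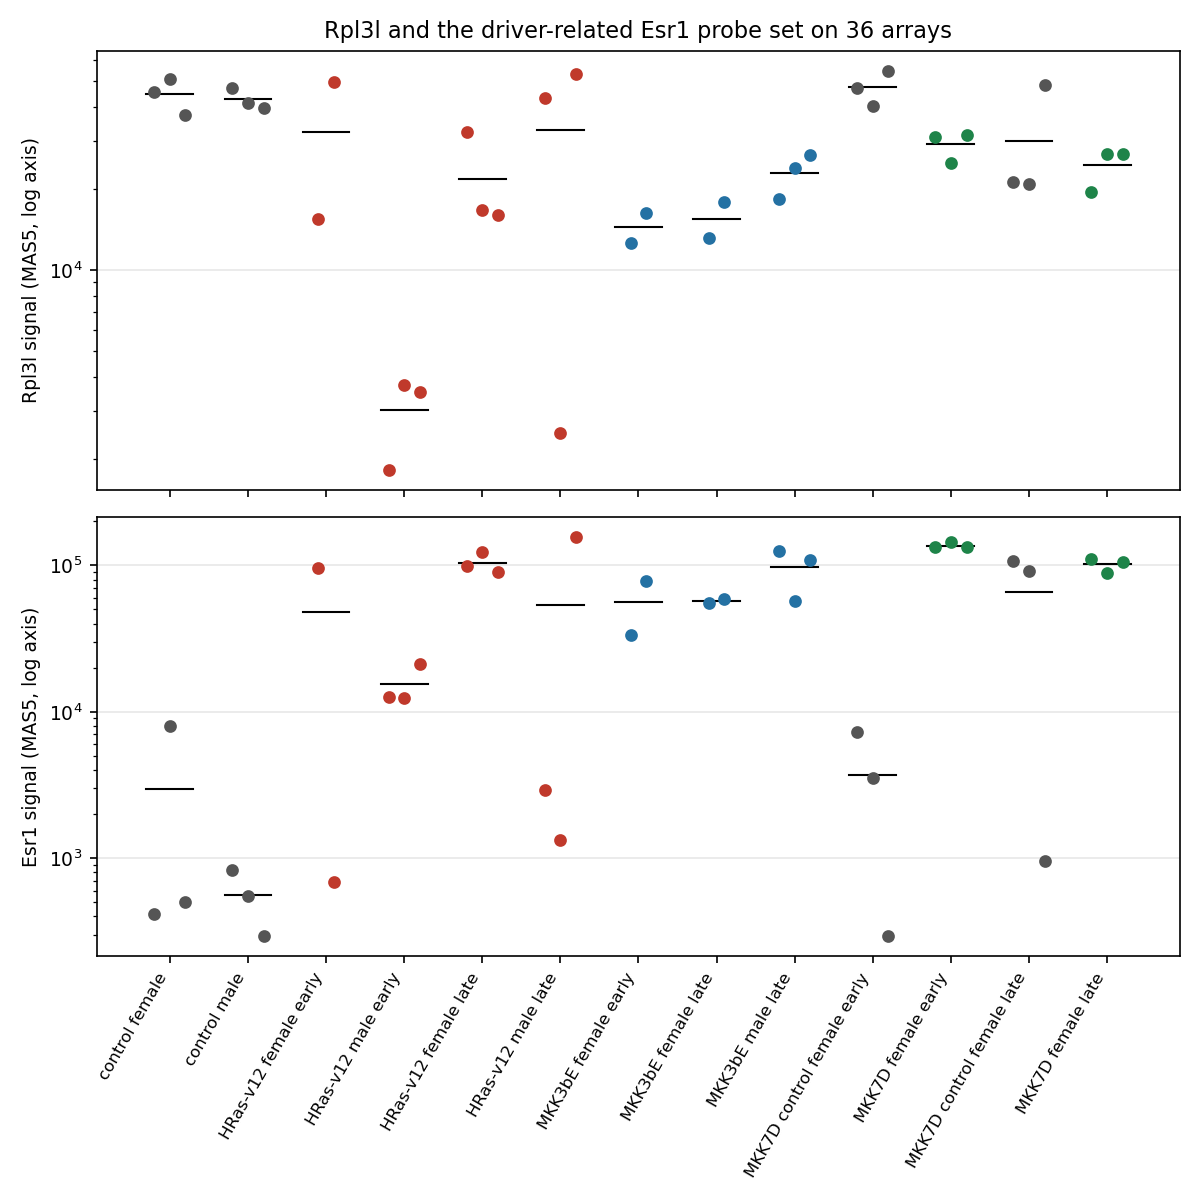
Signal of Rpl3l (top) and of the Esr1 probe set (bottom) on each of the 36 arrays by group, on log axes, with the group mean as a line. Rpl3l lay at 37450 or more on all 6 shared controls and at 1822 to 3748 on the 3 early HRas-v12 male arrays.

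Early HRas-v12 hearts had 7 members higher and 4 lower of 43. Among all genes tested 33.8% were called, 15.1% higher and 18.7% lower, so the share of members called was below that of genes at large. The median change of the members was 0.03 and that of all genes -0.04. Small-subunit genes gave 4 of the rises and 2 of the falls, and large-subunit genes 3 and 2. Without the arrays in doubt all 11 were still called in the same direction.

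Rps25, a 40S protein known for its role in start of translation at viral internal sites, rose 1.51-fold. It was read from 1 dim probe set, the only one that names Rps25 alone. Its signal was 1451 to 2335 in the 6 controls (median 1804), 2346 and 2136 in the 2 early females, and 3537, 3636 and 3056 in the 3 early males. The males lay above every control, and 1 of the females did not. The log2 change was 0.59 ± 0.11 (5 against 6 arrays; limma adjusted p = 0.000412), and it too was called in all 19 settings.

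Rpl37, a zinc-binding protein of the large subunit, read 10153 to 18861 in controls and 19122, 13173, 19546, 21435 and 17245 in early HRas-v12 arrays. Its log2 change was 0.40 ± 0.13 (limma adjusted p = 0.0233), and the groups overlapped. Rpl27, another large-subunit protein, read 35220 to 46053 in controls and 56647, 47249, 57976, 53989 and 43273 in early HRas-v12 arrays. Its change was 0.37 ± 0.11 (adjusted p = 0.0110), and 4 of the 5 arrays lay above all shared controls. Rps27l, a paralog of Rps27 known as a p53 target, read 18036 to 27536 in controls and 31755, 21369, 32180, 28670 and 28450 in early HRas-v12 arrays. Its change was 0.32 ± 0.11 (adjusted p = 0.0211), and the array below the controls' highest value was the one with low Esr1.

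3 further members rose, named after their values were seen. Rpl11, a large-subunit protein that can bind Mdm2, changed by 0.29 ± 0.09 (limma adjusted p = 0.0169). Rps26, of the small subunit, changed by 0.28 ± 0.09 (adjusted p = 0.0221). Rpsa, a small-subunit protein also known as the laminin receptor precursor, changed by 0.28 ± 0.11 (adjusted p = 0.0392). Rpsa read 88069, 79552 and 78617 in the early males and 66910 and 47228 in the early females, against 48790 to 66655 in controls. Of the females, replicate 1 lay above the highest shared control and replicate 3, with low Esr1, below the lowest. The males lay above all controls.

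4 members fell. Besides Rpl3l these were Rpl27a, a large-subunit protein on a dim probe set, at -0.55 ± 0.19 (limma adjusted p = 0.0228), Rps29 at -0.26 ± 0.08 (adjusted p = 0.0156) and Rps15, a small-subunit protein, at -0.20 ± 0.08 (adjusted p = 0.0449). Every early HRas-v12 array lay below every shared control for Rps29 (106597 to 124653 against 131917 to 144418) and for Rps15. These were 2 of 43 members without overlap, where 4.27% of all genes had none. The early MKK7D controls were not part of this comparison and overlapped the early HRas-v12 arrays for both genes. They read 99009 to 116664 for Rps29 and 61610 to 64458 for Rps15, where early HRas-v12 arrays read 54438 to 66063. Rps27, the stem of Rps27l, was at -0.18 ± 0.34 and Rpl39 at 0.11 ± 0.12, and neither was called, nor was Rps4x, the X-linked form of Rps4, at -0.06 ± 0.07.

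Directions of the bright members depended on the scaling. With quantile normalization over the 36 arrays, 30 members were called higher and 2 lower in early HRas-v12 hearts, the median was 0.22, and Rps29 turned to 0.17. Rps25 was at 0.58, Rpl27a at -0.58 and Rpl3l at -2.22 there, close to their values above. Without HRas-v12 female early replicate 1, the female array with a high Esr1 signal, 2 members were called, without control male 2 or HRas-v12 male early replicate 1 7 were, and with only the groups compared 5 were.

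**Figure D3:**
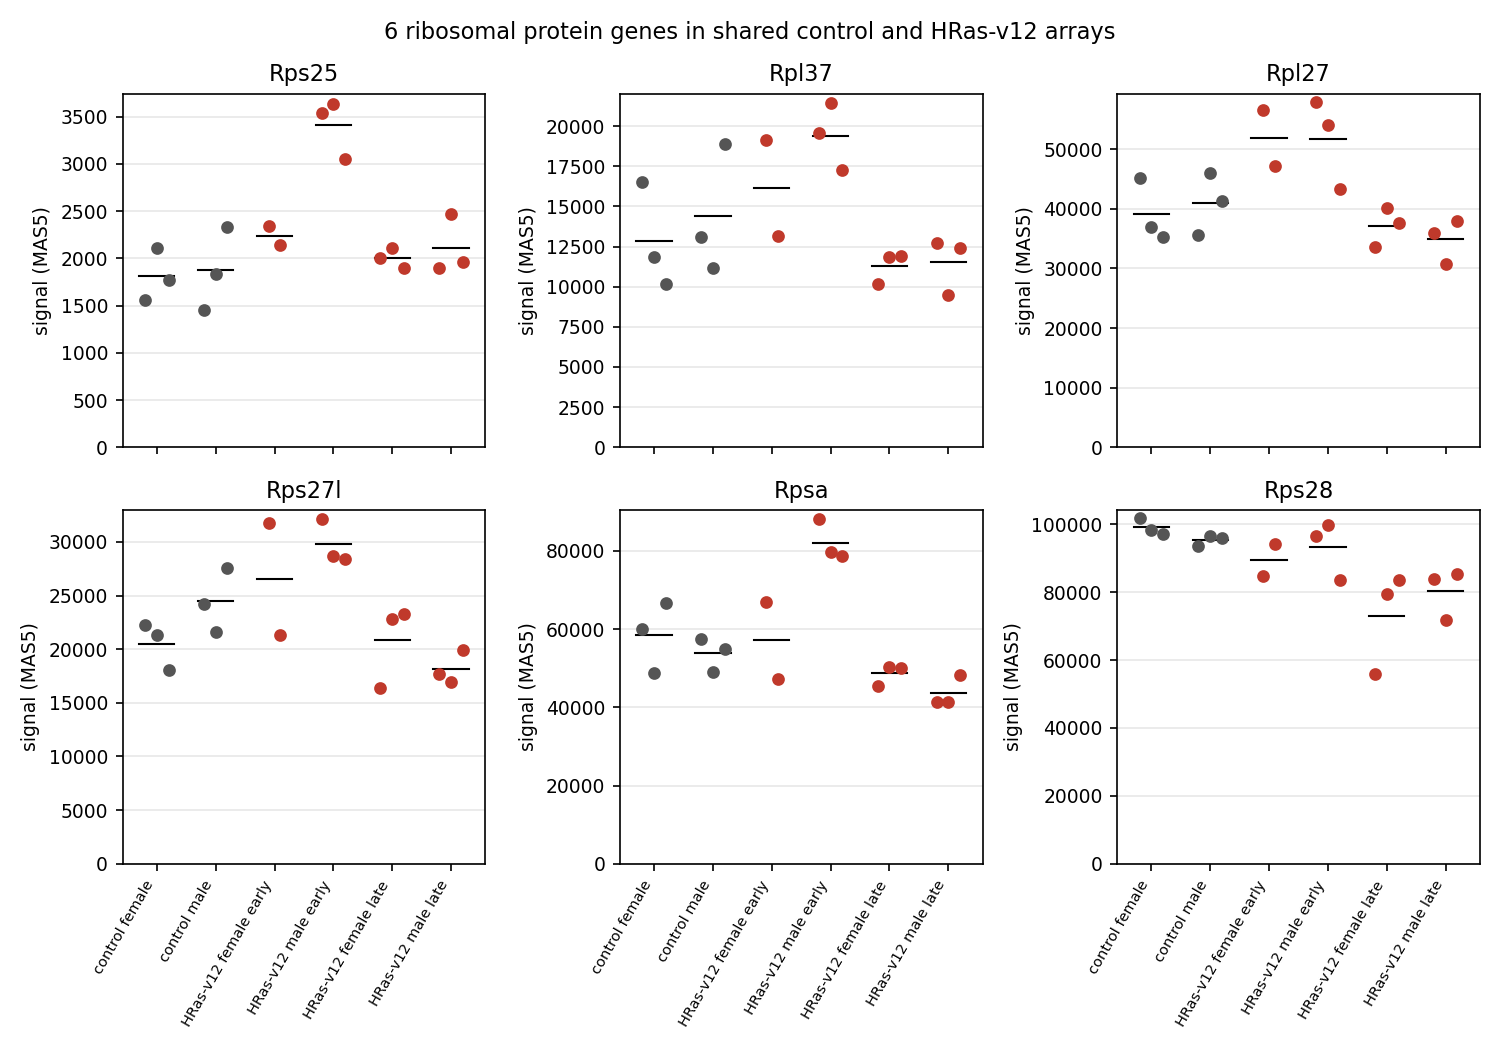
Signal (y axis, from 0) of Rps25, Rpl37, Rpl27, Rps27l, Rpsa and Rps28 on each control and HRas-v12 array, with the group mean as a line. The 3 early HRas-v12 males read 3056 to 3636 for Rps25 and 78617 to 88069 for Rpsa, above all controls, and the late arrays lay lower for both.

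Other cell types' markers moved with the early HRas-v12 group, and their part in the results above was not tested. All 7 cardiac muscle markers fell, 7 of 10 macrophage and 5 of 8 fibroblast markers rose, and 6 of 7 endothelial markers fell. Summed macrophage signal was 63973 to 93806 in controls and 59681 to 234741 in early HRas-v12 hearts, fibroblast signal 169726 to 237546 and 171275 to 552228, endothelial signal 43586 to 58860 and 25192 to 52493. The summed cardiac signal was 1041970 to 1399170 and 685593 to 989817.

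Late HRas-v12 hearts had 8 members lower and none higher of 43, where 9.52% of all genes were called, 4.86% higher and 4.66% lower. The median was -0.16, against 0.02 for all genes, and 39 of the 43 members had a negative value. At an unadjusted p under 0.05, 20 members passed, all of them lower. The median was -0.15 for 60S and -0.17 for 40S genes.

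Rps28, a small-subunit protein, fell 1.28-fold. It read 93462 to 101862 in the 6 controls and 55986, 79550, 83547, 83767, 71814 and 85360 in the 6 late arrays, without overlap. The log2 change was -0.36 ± 0.09 (limma adjusted p = 0.0190). Rpl27a read 3801 to 6146 in controls and 2305 to 3681 in late HRas-v12 arrays, at -0.75 ± 0.18 (adjusted p = 0.0165). Rps29 read 93055 to 126086 against 131917 to 144418, at -0.32 ± 0.08 (adjusted p = 0.0180). Rpl37a, a large-subunit protein, was at -0.33 ± 0.10 (adjusted p = 0.0332), with overlap.

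The others called, named after their values were seen, were Rps2 (-0.30), Rps18 (-0.29), Rpl38 (-0.28) and Rps24 (-0.23). Of the 8 genes, 5 had every late array below every shared control: Rpl27a, Rps18, Rps2, Rps28 and Rps29. This held for 1.39% of all genes in either direction. The early MKK7D controls, not part of this comparison, overlapped the late HRas-v12 arrays for all 5 genes. They read 2928 to 3518 for Rpl27a, 59630 to 63794 for Rps18 and 88932 to 112049 for Rps2. For Rps28 they read 81381 to 87587, and for Rps29 99009 to 116664. Late MKK7D control replicate 10 lay within the late HRas-v12 range for Rps18, Rps2, Rps28 and Rps29, and above it for Rpl27a (4740). The 5 called genes with further probe sets above the filter (Rpl37a, Rps18, Rps24, Rps28 and Rps29) had 13 of them, of which 12 had the same sign and 4 were called: both of Rps28, 1 of 2 of Rps29 and 1 of 5 of Rps24. Neither of Rpl37a (-0.13 and -0.48) nor of Rps18 (-0.22 and -0.27) was called, and 1 of Rps24 was at 0.41.

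These falls rested on scaling and on single arrays. With quantile normalization 1 member was called lower, Rpl27a, 2 were called higher, and the median was 0.03. Rpl38, Rps2 and Rps24 turned to 0.0036, 0.0037 and 0.049. None of the 8 was called on leaving out HRas-v12 male late replicate 3, on leaving out the arrays in doubt (median -0.13), or on fitting only the groups compared. Without HRas-v12 male late replicate 4 the count was 14, and without HRas-v12 female late replicate 3 it was 2. It was 4 without control male 5, control female 4 or control female 1, and 5 without control male 1, control male 2 or HRas-v12 female late replicate 2. In the same hearts 5 of 7 cardiac muscle markers fell, and 3 of 8 fibroblast and 1 of 10 macrophage markers rose, with summed macrophage signal at 53346 to 299183, and their part in the result was not tested.

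**Figure D4:**
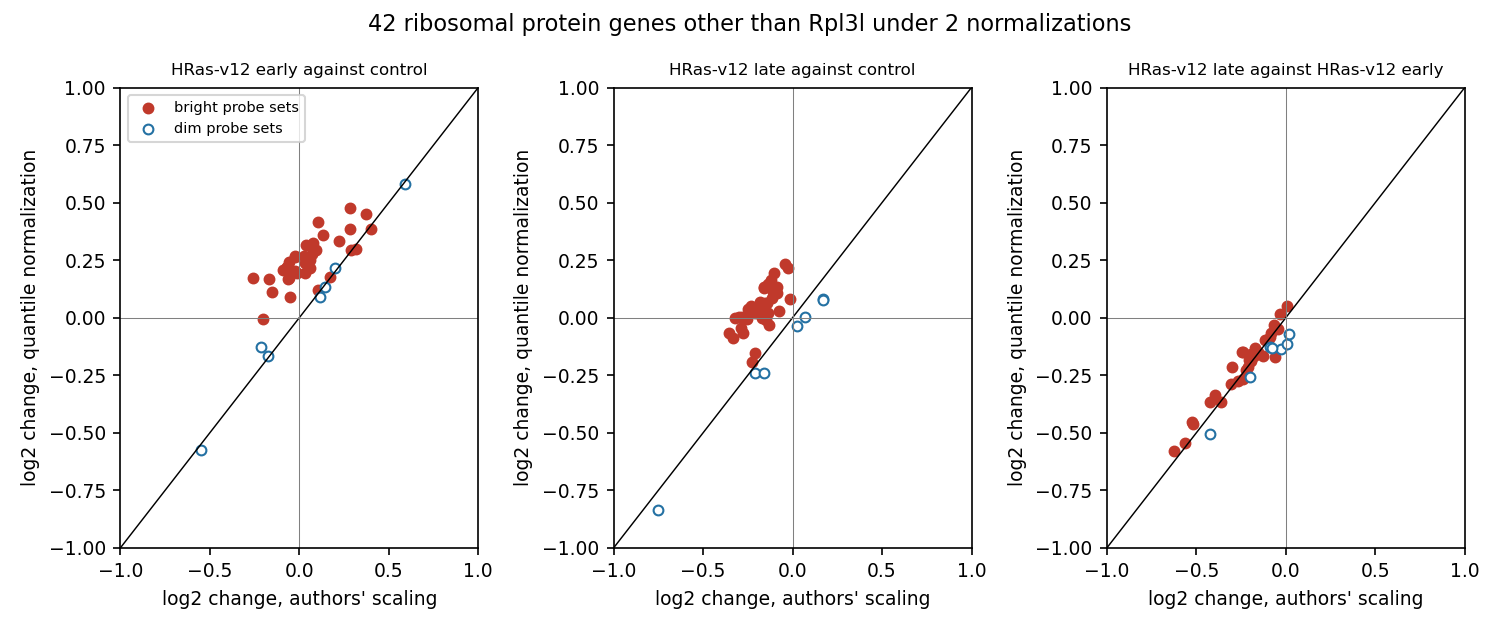
Log2 change of the 42 members other than Rpl3l with the authors' scaling (x axis) and with quantile normalization (y axis), bright probe sets filled and dim ones open, on the line of equality. Against control most bright members lay above the line, and quantile normalization moved the median of the members by 0.18 early and 0.19 late, but by 0.03 late against early.

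Between the times, late HRas-v12 hearts lay below early ones for many members. Of 43, 9 were lower and none higher, where 11.6% of all genes were called, 6.91% higher and 4.67% lower. The median was -0.19, against 0.06 for all genes, and 39 members were negative. At an unadjusted p under 0.05, 23 were lower and 1, Rpl3l, higher. Rpl37 had the largest fall, at -0.62 ± 0.13 (limma adjusted p = 0.00359), from 13173 to 21435 on early arrays to 9492 to 12712 on late ones. Rpsa was at -0.56 ± 0.11 (adjusted p = 0.00127), Rps27l at -0.53 ± 0.11 (adjusted p = 0.00221) and Rpl27 at -0.52 ± 0.11 (adjusted p = 0.00346).

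The remaining calls were Rps25 (-0.42), Rps26 (-0.42), Rpl35 (-0.39), Rps18 (-0.36) and Rpl11 (-0.30). Rpl27, Rpl37 and Rps18 did not overlap between the times, which held for 2.3% of all genes in either direction. Of the 7 members higher than control early, all were among the 9, but both comparisons use the same early arrays. This direction was the same with quantile normalization, where 14 were lower and none higher (median -0.17) and 8 of the 9 were called again. Without the arrays in doubt 1 early female and 1 late male array were left. All 9 were again lower there, and Rpl3l was 2.30 higher. Without HRas-v12 female early replicate 1, 2 were called, and with only the groups compared none were. In the same comparison 3 of 7 endothelial markers were higher (median 0.52) and 1 of 10 macrophage markers lower, and their part was not tested.

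**Figure D5:**
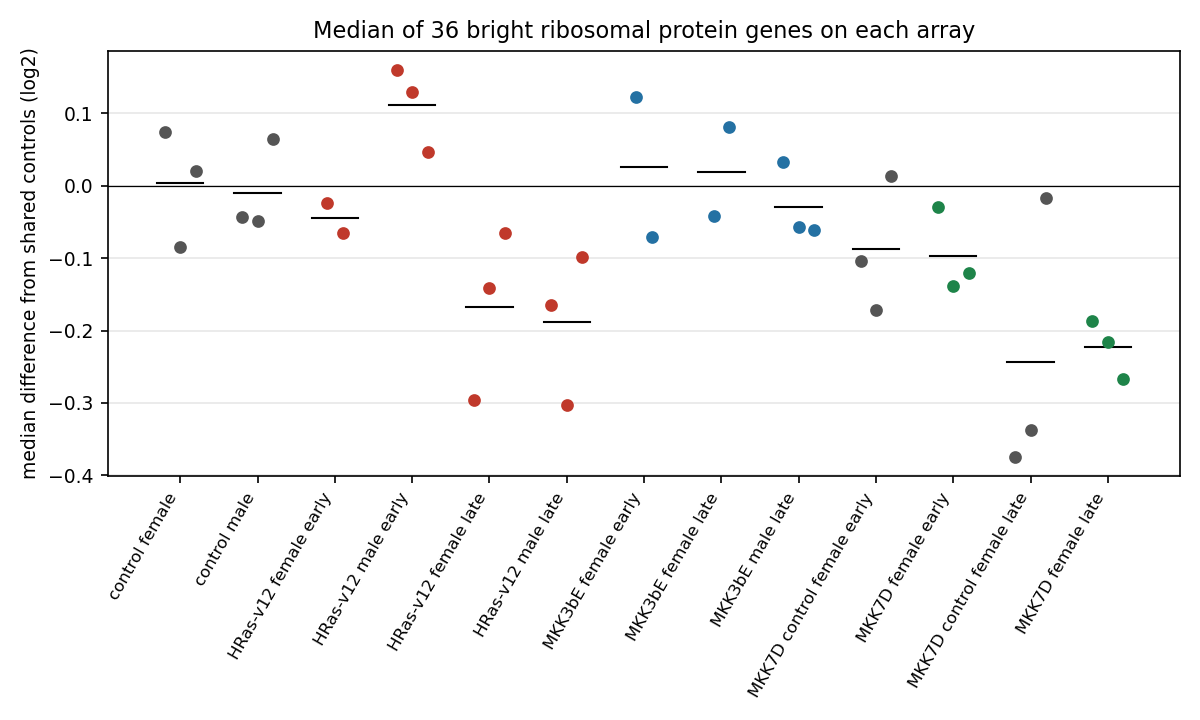
Median over the 36 bright members of the log2 difference from the mean of the shared controls (y axis), for each array by group, with the group mean as a line. Late HRas-v12 arrays lay at -0.30 to -0.07, shared controls at -0.08 to 0.07, and the arrays labelled late MKK7D control at -0.37 to -0.02.

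MKK3bE hearts had almost no member called. Early, 0 of 43 were called by limma (6.26% of all genes), 2 had an unadjusted p under 0.05, and the median was 0.05. Late, only Rps2 was called (10.4% of all genes), and the median was 0.00. Rps2, a small-subunit protein near the mRNA entry site, read 106582 to 121133 in the 6 controls, 98763 and 82930 in early MKK3bE and 81295, 91885, 91941, 86781 and 93924 in late MKK3bE. Every MKK3bE array lay below every shared control. The early MKK7D controls, not part of these comparisons, read 92435, 88932 and 112049, and late MKK7D control replicate 10 read 97458. The late change was -0.33 ± 0.09 (limma adjusted p = 0.0235) and the early one -0.36 ± 0.14 (adjusted p = 0.108). The late call was lost without any 1 of 3 MKK3bE arrays (male 2, female 2, female 3). Members without overlap were 5 early (42.5% of all genes, at 2 against 3 arrays) and 3 late (10.1%). Fibroblast markers were higher at both times, 4 of 8, and their part was not tested. Late against early, 0 of 43 were called (0.00792% of all genes), with 0 at an unadjusted p under 0.05.

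MKK7D hearts had 0 of 43 members called early (0.135% of all genes) and 0 late (0% of all genes) by limma, with 3 and 0 at an unadjusted p under 0.05. The medians were -0.01 and 0.03. Rpl12, a large-subunit protein on a dim probe set, had the largest early value, with 1480, 1216 and 1331 against 767, 959 and 668 in its controls. The arrays did not overlap, and the log2 change was 0.74 ± 0.26 (adjusted p = 0.269). It was named after its values were seen. Members without overlap were 3 at each time, where 23.4% and 12.5% of all genes had none. The change late did not differ from the change early for any member by limma (0 of 43, 0.0158% of all genes, 1 at an unadjusted p under 0.05). Without the arrays in doubt the late median was -0.19 with no member called, against the 1 control array left.

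The lines were also set against each other. Late HRas-v12 against late MKK3bE hearts, 1 of 43 was called (3.95% of all genes), Rps28 at -0.36 ± 0.09 (limma adjusted p = 0.0257), with MKK3bE at 97377 ± 6369 (SD, n = 5) and HRas-v12 at 76671 ± 11251 (n = 6). The median was -0.17, and 21 members had an unadjusted p under 0.05. Without the arrays in doubt Rps28 was not called, at -0.31, and Rpl3l was at 0.83. The only late HRas-v12 male left there was replicate 4, with an Rpl3l signal of 53152. The count was 0 without HRas-v12 female late replicate 2, MKK3bE male late 2, MKK3bE female late 2 or MKK3bE female late 3, and 2 without HRas-v12 female late 4, HRas-v12 male late 4 or MKK3bE male late 3. Early, in females, 0 of 43 were called by limma (1.81% of all genes), 1 at an unadjusted p under 0.05, with a median of -0.10.

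Genes that build ribosomes were called more often higher than lower in early HRas-v12 and in MKK3bE hearts, with a share called near that of all genes in early HRas-v12. Of 73 tested biogenesis and RNA polymerase I factors, 20 rose and 3 fell in early HRas-v12 hearts (median 0.18), 11 rose in early MKK3bE (median 0.19) and 10 rose and 1 fell in late MKK3bE (median 0.13). In late HRas-v12 2 rose and 3 fell, and in MKK7D 0 of 73 were called at either time. The share of the list called was 31.5% in early HRas-v12 (33.8% of all genes), 6.85% in late HRas-v12 (9.52%), 15.1% in early MKK3bE (6.26%) and 15.1% in late MKK3bE (10.4%), and the medians of all genes were -0.04, 0.02, -0.02 and -0.01. Eif6, which keeps new 60S subunits from joining too early, rose by 0.92 ± 0.16 in early (limma adjusted p = 0.000135) and 0.52 ± 0.15 in late HRas-v12 hearts. Nhp2, of the pseudouridine-forming H/ACA particles, rose by 0.80 and Nolc1, a nucleolar phosphoprotein, by 0.56 in early HRas-v12. Rrp12, which works in export and processing of both subunits, rose by 2.11 ± 0.29 in early (adjusted p = 0.000106) and 1.41 ± 0.19 in late MKK3bE hearts (adjusted p = 5.15e-05). Ddx21, an RNA helicase of the nucleolus, rose by 1.04 and Ltv1, a 40S assembly factor, by 0.62 in early MKK3bE. Ncl, nucleolin, rose by 0.38 and Tsr1, a 40S assembly factor, by 0.61 in late MKK3bE. In late HRas-v12 Taf1b, of the RNA polymerase I start complex, rose by 0.38 and Krr1, of the 40S processome, fell by 0.35. With quantile normalization 20 rose and 4 fell in early HRas-v12, and without the arrays in doubt 27 and 7.

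Of 34 translation initiation factors, 10 rose and 2 fell in early HRas-v12, 2 fell in late HRas-v12, and 2 and 4 rose in early and late MKK3bE. The shares called against control were 35.3% and 5.88% in early and late HRas-v12 and 5.88% and 11.8% in early and late MKK3bE. They lay near or below those of all genes (33.8%, 9.52%, 6.26% and 10.4%). Late against early HRas-v12, 8 were lower and 0 higher, 23.5% of the list beside 11.6% of all genes. Eif1a, which opens the 40S subunit for scanning, rose by 1.43 ± 0.22 in early HRas-v12 (limma adjusted p = 6.55e-05) and by 1.25 in early MKK3bE. Eif4a1, the helicase of the cap complex, rose by 0.73 in early HRas-v12 and 0.57 in late MKK3bE. Eif3a, the largest subunit of eIF3, rose by 0.76 and 0.47 in early and late MKK3bE. Eif2b4, of the exchange factor for eIF2, fell by 0.46 and Eif4g2 fell by 0.36 in late HRas-v12.

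Of 21 tested ribosomal protein fusion, elongation factor and other TOP mRNA genes, 5 rose and 4 fell in early HRas-v12, 1 fell late, and 2 and 3 rose in early and late MKK3bE. These were 42.9% and 4.76% of the list in HRas-v12, beside 33.8% and 9.52% of all genes, and 9.52% and 14.3% in MKK3bE, beside 6.26% and 10.4%. Eif3l, a subunit of eIF3, rose by 0.46 and Btf3, of the nascent chain complex, by 0.39 in early HRas-v12. Btf3 rose by 0.46 and 0.36 in early and late MKK3bE, and Eif4b, a helper of eIF4A, by 0.40 late. Eef1a2, the elongation factor form of muscle and neurons, fell by 0.68 and 0.44 in early and late HRas-v12.

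Of 22 tested genes of mTOR and S6 kinase control, 3 rose and 5 fell in early HRas-v12, 1 fell late, and 1 rose in MKK3bE at each time with 1 falling late. The shares called against control, 36.4% and 4.55% in HRas-v12 and 4.55% and 9.09% in MKK3bE, lay near or below the same shares of all genes. Late against early HRas-v12, 6 were higher and 2 lower, 36.4% of the list beside 11.6% of all genes. In that comparison the share was 15.1% for the biogenesis list and 14.3% for the TOP mRNA list. Tsc1, an inhibitor of mTOR, fell by 0.78, Pdcd4, an inhibitor of eIF4A, by 0.60 and the kinase gene Rps6ka5 fell by 1.15 in early HRas-v12 (limma adjusted p = 0.000202, 0.000249 and 0.000473). Larp4, a poly(A) binding factor, fell by 0.36 in late HRas-v12. Myc, a transcription factor that drives ribosome biogenesis genes, rose by 2.75 ± 0.74 in early (adjusted p = 0.0244) and 2.34 ± 0.49 in late MKK3bE hearts (adjusted p = 0.00386). Rps6ka5 fell by 0.91 there late. No member of these 3 lists was called in MKK7D hearts at either time.

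Other probe sets gave similar medians. Over the 85 probe sets of 1 member symbol above the filter the median was 0.06 in early and -0.15 in late HRas-v12 hearts, and over 101 probe sets that name a member beside other genes it was 0.05 and -0.17. The latter were not counted as members. Both further probe sets of Rps27l rose as well in early HRas-v12 (0.36 and 0.35). Those of the other called genes did not pass: Rpl27 at 0.23 and 0.17, Rps15 at 0.05 and Rps29 at -0.22 and -0.11. Many probe sets of ribosomal protein genes can take up RNA of processed pseudogenes, so the signal of a member and of its copies may be mixed.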

How the data were processed

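Left ventricle RNA was measured on 36 Affymetrix mouse expression arrays. The values the authors deposited are linear probe set intensity signals from MAS5, per the submitters' processing notes, which name no version. Each array had a 2% trimmed mean of 2500, so 1 factor per array had been applied. Of 45101 probe sets, 34958 had 1 gene symbol, 932 several and 9211 none in the annotation table. Symbols were updated through the gene number for 34754.

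Values were taken as log2(signal + 32). The upper 60% of probe sets by mean were kept (log2 8.80 or more, 27022 probe sets) and the brightest of each gene entered the fit. A model of 13 group means was fitted with limma (version 3.58.1, R 4.3.3), using eBayes with a trend on intensity and 23 residual degrees of freedom, giving 11 comparisons. Female and male differences were averaged where a group had both sexes. The Benjamini-Hochberg adjustment ran over all genes tested. The fit was tested on simulated data. The number of arrays limits the precision.

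The members, the lists of genes and the naming rule were chosen with earlier results of these data known. The rule names Rpl3l and Rpl3, members with a paralog, the 4 largest rises and falls called against control, the brightest and dimmest member, and up to 3 listed genes per comparison with the smallest adjusted p. Alternatives were quantile normalization, a pseudocount of 1, no filter, the mean over probe sets, only the groups compared, no trend, a replicate block and leaving out each array. Same-numbered arrays did not deviate together: 1 of 19 pairs had a correlation over 0.1, so the numbers were not taken to pair them.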

Additional observations from a re-analysis of the deposited data

Results flagged for a closer look

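In HRas-v12 hearts 9 ribosomal protein genes differed between the late and the early change by the limma test of that difference, with the shared controls dropping out of it. The log2 differences, late minus early, were -0.62 for Rpl37, -0.56 for Rpsa, -0.53 for Rps27l, -0.52 for Rpl27, -0.42 for Rps25, -0.42 for Rps26, -0.39 for Rpl35, -0.36 for Rps18 and -0.30 for Rpl11. Rps28 differed between late HRas-v12 and late MKK3bE hearts, at -0.36. All 9 late-minus-early differences kept their sign with quantile normalization.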

How the results depend on the processing

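Values are counts of the 43 members called. With quantile normalization they were 32 for early HRas-v12 (median 0.22), 3 for late HRas-v12 (0.03), 1 for early MKK3bE (0.15), 2 for late MKK3bE (0.08) and 14 for late against early HRas-v12 (-0.17). Rps29 turned to 0.17 early, and Rpl38, Rps2 and Rps24 to 0.0036, 0.0037 and 0.049 late. The cause was not tested. With only the groups compared they were 5, 0, 1, 2 and 0, with 1 for early MKK7D and 0 for late HRas-v12 against late MKK3bE. With no filter, late HRas-v12 gave 4 and its comparison with late MKK3bE gave 0. Without the arrays in doubt, added after seeing the data, late HRas-v12 gave 0.

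The replicate block gave 2 for early HRas-v12, 0 for late HRas-v12, 1 for early MKK3bE, 0 for late against early HRas-v12 and 0 for late HRas-v12 against late MKK3bE. No paired analysis was possible for late MKK3bE against control, late against early MKK3bE and early HRas-v12 against early MKK3bE because no residual degrees of freedom were left, nor for MKK7D because its groups share no numbers.

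Leaving out each array gave 2 to 12 for early HRas-v12, 0 to 14 for late HRas-v12, 0 to 1 for late MKK3bE, 2 to 12 for late against early HRas-v12 and 0 to 2 for late HRas-v12 against late MKK3bE. The other comparisons stayed at 0. Rpl3l in late MKK7D ran from -0.40 to 0.21, the latter without MKK7D control late replicate 10. The pseudocount, the mean over probe sets and the trend moved no count by over 1.5 times.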

Other observations

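Genes with names close to the members, chosen after their values were seen, were also measured. Rpl7l1, a ribosome assembly factor, was at -0.39 ± 0.09 in late HRas-v12 hearts against control (limma adjusted p = 0.0167). Rpl22l1, a paralog of Rpl22, was at -0.65 ± 0.14 in late against early HRas-v12 hearts (adjusted p = 0.00394), and Rps3a1, a small-subunit protein, at -0.25 ± 0.07 (adjusted p = 0.0284). In MKK3bE and MKK7D hearts none of these 3 genes was called against control.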
